A study of Mus musculus with 18 samples.

Results

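The 10 genes described here are secreted Wnt antagonists (Frzb, Sfrp1, Sfrp2, Dkk2, Dkk3 and Wif1), the ligand Wnt5a, and the Wnt target genes Axin2, Lef1 and Tcf7. They were chosen by name, with earlier results of these data known. Each was found by gene identifier among the 55401 identifiers of a table of raw counts, matching 1 identifier. The counts come from poly(A) RNA-seq of 18 cultures of mouse embryonic fibroblasts (MEFs), primary cells grown from mid-gestation embryos without head and viscera. The S6K1 series holds 3 libraries each of S6K1 wild-type (WT) MEFs with an empty vector (EV), S6K1 WT MEFs with constitutive RAS expression, and S6K1 knockout (KO) MEFs with RAS. The S6K1/2 series holds 3 libraries each of S6K1/S6K2 WT EV, WT RAS and double knockout (DKO) RAS MEFs. RAS and EV were both delivered by retrovirus, and constitutive RAS is used to drive fibroblasts into senescence. Per the methods of the study, S6K1 KO and WT embryos were littermates, whereas the WT controls of the DKO cells came from WT mothers at an earlier breeding stage and were not littermates. KO or DKO cells with EV were not analysed here, so S6K loss is compared under RAS only. The labels number the WT cells 1 to 3 within a series, with EV and with RAS, and same-numbered libraries are called a line here.

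Wnt ligands are secreted proteins that bind Frizzled receptors, with LRP5 or LRP6 as co-receptors. In the canonical branch, receptor binding keeps beta-catenin from being degraded, and beta-catenin then acts in the nucleus with DNA-binding factors of the TCF/LEF family, to which Lef1 and Tcf7 belong. Secreted frizzled-related proteins (Sfrp1, Sfrp2 and Frzb, also called Sfrp3) and Wif1 bind Wnt ligands outside the cell, and most Dickkopf proteins bind the LRP co-receptors. In connective tissue these factors are known from bone, cartilage and skin, where fibroblast-like cells are a main source of them.

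Promoter sequences are shown for 3 of the genes, because Lef1 rose with RAS, Sfrp2 rose in one series and not in the other, and Axin2, the standard target of the canonical pathway, did not pass the test. The RefSeq promoter table (build GRCm38.p6) holds entries for 7 of the 10 genes. It holds none for Sfrp1, Dkk3 and Wnt5a. Each stretch covers the 250 bases before the start farthest upstream, 5′ to 3′ on the strand of the gene. In Frzb, Tcf7 and Wif1, 229, 165 and 44 of these bases lie inside GENCODE transcripts of the same gene, so these 3 windows are not read as promoters and are not shown. Capitals mark the letters CAAAG, the core of the TCF/LEF recognition motif, or the same letters read on the other strand.
Lef1, chr3:131110047-131110296, plus strand: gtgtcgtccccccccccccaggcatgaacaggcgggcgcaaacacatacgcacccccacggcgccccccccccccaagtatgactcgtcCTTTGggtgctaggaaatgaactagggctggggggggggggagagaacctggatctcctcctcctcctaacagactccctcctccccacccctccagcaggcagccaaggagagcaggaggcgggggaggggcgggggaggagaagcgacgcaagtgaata
Axin2, chr11:108920099-108920348, plus strand: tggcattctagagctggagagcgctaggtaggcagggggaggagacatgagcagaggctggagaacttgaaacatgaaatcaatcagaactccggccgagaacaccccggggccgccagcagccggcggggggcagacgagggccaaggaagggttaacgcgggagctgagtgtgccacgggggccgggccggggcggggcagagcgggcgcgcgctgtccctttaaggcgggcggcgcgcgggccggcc
Sfrp2, chr3:83766071-83766320, plus strand: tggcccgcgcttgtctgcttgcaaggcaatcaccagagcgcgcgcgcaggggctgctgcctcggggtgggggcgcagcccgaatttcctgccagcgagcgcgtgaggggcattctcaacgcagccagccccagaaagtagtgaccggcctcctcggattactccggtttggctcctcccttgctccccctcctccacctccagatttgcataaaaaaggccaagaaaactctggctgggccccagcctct
Among the 4 windows that hold no transcribed base, the core CAAAG stood once in those of Lef1 and Dkk2 and in neither that of Sfrp2 nor that of Axin2. It was 161 bases before the start in Lef1 and 80 bases before it in Dkk2. Of all 32841 promoters in the table, 48.6% hold CAAAG on either strand, so its presence is common. The longer TCF/LEF motif ATCAAAG, which contains the core, is held by 3.21% of all promoters and by none of the 4 windows. The AP-1 motif TGANTCA, on either strand, is held by 6.75% of all promoters and likewise by none of the 4. The windows differ in base composition. That of Lef1 has a GC content of 66.4% with 11 CpG pairs and that of Axin2 one of 69.2% with 24 CpG pairs, where the median over all promoters is 52.4%. Lef1 has 4 listed starts, and the counts do not tell which was used.

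Library totals ranged from 8319445 to 14402442 counts, and at the shallowest library's depth a count of 0 (a floor of 3 counts) allows 0.361 CPM. Levels are in CPM, counts per 1000000 counts of the library, with libraries scaled by TMM (an edgeR method) among the 9 of a series. The labels were checked on the targeted genes. Rps6kb1, which encodes S6K1, was 69 ± 6.74 CPM (SD, n = 3) in WT cells with RAS, and KO cells with RAS had 30.6 ± 6.75 CPM. Its level in the S6K1/2 series with RAS was 80.6 ± 4.45 CPM for WT cells against 37.5 ± 2.7 CPM for DKO cells. Reads of Rps6kb1 thus remained in both knockouts, and counts per gene do not show whether they include the deleted part. Rps6kb2, which encodes S6K2, was 25.8 ± 2.68 CPM in the WT RAS and 2.84 ± 0.186 CPM in the DKO RAS cells of the S6K1/2 series. Hras lay between 50.8 and 72.7 CPM in the 6 EV libraries and between 90.3 and 141 CPM in the 12 RAS libraries. All 10 fibroblast markers examined were above the floor in every library. Their summed level was 30076 to 33101 CPM with EV and 15073 to 15782 CPM with RAS in the WT cells of the S6K1 series, and 30128 to 48308 CPM against 13283 to 18148 CPM in those of the S6K1/2 series. All 7 macrophage markers were also above the floor in every group, with sums of 477 to 2394 CPM for EV, 563 to 2740 CPM for RAS and 196 to 660 CPM for KO with RAS in the S6K1 series. The macrophage sums of the S6K1/2 series were 122 to 1035, 153 to 771 and 63.8 to 181 CPM. Of 5 epithelial markers, 2 were above the floor in every S6K1 WT EV library and 5 in every WT RAS library, and their sum moved from 9.53 to 18.2 CPM to 133 to 167 CPM. The same sum in the S6K1/2 series moved from 8.05 to 10.8 CPM to 119 to 159 CPM. Of 5 skeletal muscle markers, Myod1, Myog and Actc1 were at or under the floor in every library, and the sum of the list was 0.745 to 1.28 CPM with EV and 16.1 to 29.8 CPM with RAS in S6K1 WT cells, and 1.75 to 2.12 against 6.95 to 19.9 CPM in S6K1/2 WT cells. The sum of 5 smooth muscle markers was 5244 to 7154 CPM with EV and 3626 to 4334 CPM with RAS in S6K1 WT cells, and 1133 to 4557 against 2273 to 4847 CPM in S6K1/2 WT cells. The sum of 5 neural markers was 123 to 244 CPM with EV and 490 to 593 CPM with RAS in S6K1/2 WT cells, and 387 to 487 against 411 to 573 CPM in S6K1 WT cells. Chondrocyte and endothelial sums overlapped between EV and RAS in both series. The part of these other cell markers in the results on Wnt genes was not tested. In bulk RNA, fewer cells of a type and less RNA per cell cannot be told apart.

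Levels of different genes are comparable only per length. On the scale of CPM per kilobase of exon, the order of mean levels in S6K1 WT EV cells was Dkk3 (99.6), Dkk2 (52.5), Sfrp1 (45.6), Wnt5a (24.9), Frzb (3.19), Sfrp2 (1.32), Tcf7 (0.849), Axin2 (0.399), Lef1 (0.103) and Wif1 (0.0839). The antagonists Dkk3, Dkk2 and Sfrp1 were thus the abundant members, and the target genes Tcf7, Axin2 and Lef1 and the antagonist Wif1 were at the low end. In S6K1 WT RAS cells the order was Dkk2 (208), Dkk3 (39.2), Wnt5a (37), Sfrp2 (24.3), Frzb (23.4), Sfrp1 (12.6), Tcf7 (1.99), Axin2 (0.659), Lef1 (0.243) and Wif1 (0.0652). Neighbours whose means differed by less than the larger of their SDs over libraries were Dkk2 and Sfrp1, Sfrp2 and Tcf7, and Lef1 and Wif1 in the EV order, and Dkk3 and Wnt5a, and Sfrp2 and Frzb, in the RAS order. Among S6K1/2 cells Dkk3 led in WT EV (150 CPM per kilobase) and Dkk2 in WT RAS (114) and DKO RAS (115).

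**Figure D1:**
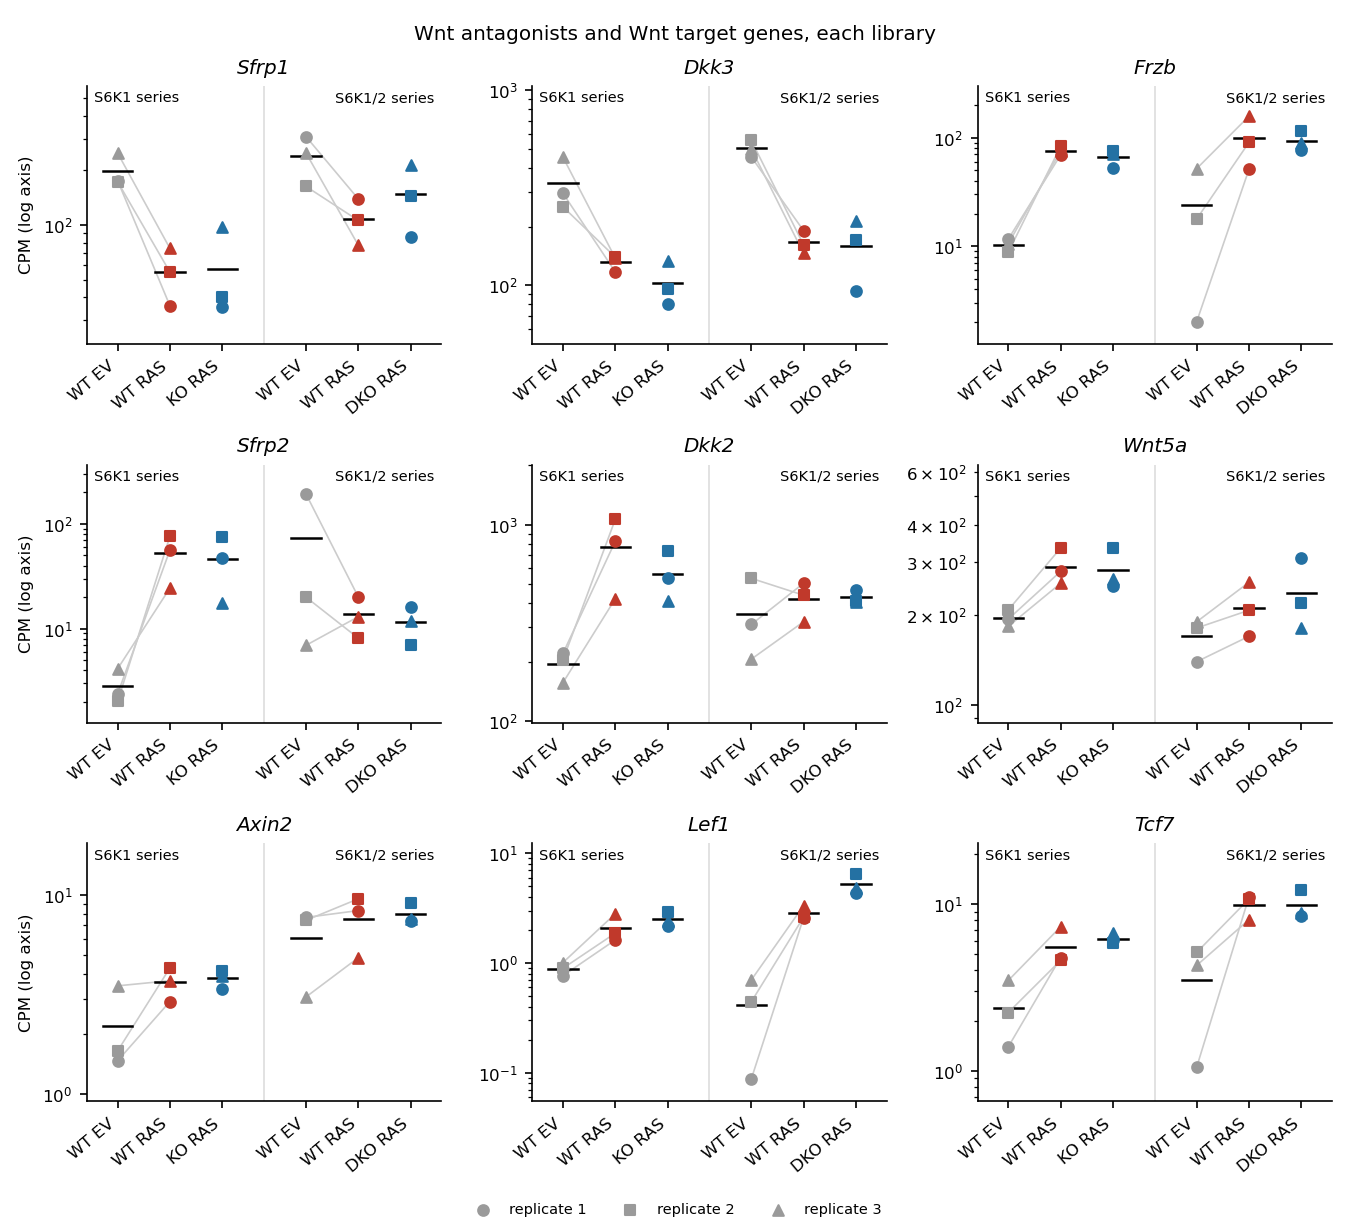
Levels of 9 of the 10 genes in CPM on a log axis, with 1 point per library, the replicate number as the point shape, a black bar for the group mean and grey lines joining the EV and RAS libraries of 1 WT line. Sfrp1 and Dkk3 fall with RAS in every line of both series, Lef1 and Tcf7 rise in every line, and Sfrp2 moves apart between the series.

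The first comparison asked what constitutive RAS did to these genes in WT cells. With RAS, Sfrp1 and Dkk3 fell and Lef1 and Tcf7 rose in both series. In the S6K1 series Frzb, Sfrp2, Dkk2 and Wnt5a rose as well. By edgeR's quasi-likelihood test with Benjamini-Hochberg adjustment over all genes, 8 of the 10 genes passed an adjusted p of 0.05 in the S6K1 series, 6 higher and 2 lower. Over all 14036 genes tested there, 13.2% passed, 7.15% higher and 6.09% lower. For the S6K1/2 series 4 of the 10 passed, 2 higher and 2 lower, where 26.3% of 13881 genes passed, 13.5% higher and 12.7% lower. Wif1 did not reach the filter on low counts in either series and was not tested, so these calls are among 9 tested genes. The genes were chosen with earlier results of these data known, so their counts are not read as an excess over the shares. The median log2 fold change of the 9 tested genes was 1.24 in the S6K1 series and 0.31 in the S6K1/2 series, beside medians over all genes of 0.00 and -0.02.

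Sfrp1, a secreted frizzled-related protein, was at 176, 173 and 250 CPM in S6K1 WT EV replicates 1 to 3 and at 35.9, 55 and 74.3 CPM in the same lines with RAS. The groups did not overlap. The level was 3.62-fold lower with RAS (log2 fold change -1.86, SE 0.41, adjusted p = 0.0163, edgeR). Sfrp1 in the S6K1/2 series was at 308, 163 and 250 CPM with EV and at 139, 106 and 77.5 CPM with RAS, again without overlap (log2 fold change -1.16, SE 0.35, adjusted p = 0.0358). With the replicate number as a block, the S6K1/2 value was -1.13 with an adjusted p of 0.0546, above the threshold. In that series the block also held the same-numbered DKO library.

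Dkk3, a divergent member of the Dickkopf family whose action on Wnt signalling varies with context, was the member that fell most uniformly. It was at 296, 253 and 454 CPM in S6K1 WT EV and at 117, 140 and 138 CPM in S6K1 WT RAS cells. The decrease was 2.54-fold (log2 fold change -1.34, SE 0.25, adjusted p = 0.00709, edgeR). Dkk3 in the S6K1/2 series was at 456, 554 and 501 CPM with EV and at 191, 161 and 146 CPM with RAS, a 3.03-fold decrease (log2 fold change -1.60, SE 0.26, adjusted p = 0.00252). In both series every EV library was above every RAS library. Its call held with each of the 6 libraries compared left out, with a highest adjusted p of 0.0329 in the S6K1 series and 0.015 in the S6K1/2 series.

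Frzb, which binds Wnt ligands and was first described in cartilage, rose. It was at 11.6, 8.79 and 10.5 CPM in S6K1 WT EV and at 69.2, 82.9 and 75.4 CPM in WT RAS cells, a tight 7.35-fold increase (log2 fold change 2.88, SE 0.18, adjusted p = 0.000101, edgeR). With EV, the S6K1/2 lines already differed widely, at 2.01, 17.8 and 51.7 CPM, and the RAS libraries of these lines were at 50.9, 90.3 and 157 CPM. The highest EV library was thus above the lowest RAS library. Within lines the level was 25.3-fold, 5.08-fold and 3.04-fold higher with RAS. The unpaired log2 fold change of 2.06 (SE 0.79) had an adjusted p of 0.0809, and with the replicate block it was 2.39 with an adjusted p of 0.025. With 1 library left out, the unpaired value ranged from 1.52 to 3.35. It passed without the third EV library (3.35, adjusted p = 0.0117), and in the other fits that left out a library the adjusted p reached 0.237. Unpaired, it also passed without a filter on low counts (0.00106) and with all 18 libraries in the fit (0.0241).

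Sfrp2, another frizzled-related protein and a known product of dermal and perivascular fibroblasts, gave the widest range of the set. It was at 2.37, 2.01 and 4.12 CPM in S6K1 WT EV and at 56.2, 76.2 and 24.3 CPM in WT RAS cells. The increase was 18.6-fold (log2 fold change 4.22, SE 0.63, adjusted p = 0.00266, edgeR), and it was seen in 3 of 3 lines, at 23.7-fold, 37.9-fold and 5.9-fold. S6K1/2 lines with EV were at 194, 20 and 6.91 CPM and the RAS libraries at 20.1, 8.1 and 13 CPM. The level with RAS was 9.65-fold lower in the first line, 2.47-fold lower in the second and 1.88-fold higher in the third. The log2 fold change of -2.42 (SE 0.98) had an adjusted p of 0.0965. It rested on the first EV line: without that library it was 0.03 with an adjusted p of 0.972, and without the third EV line it was -2.95 with an adjusted p of 0.0192. Without a filter on low counts it was -2.40 with an adjusted p of 0.00135. An antisense gene overlaps Sfrp2 in the annotation, and whether the counting used strand is not given in the sources used here.

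The first S6K1/2 WT EV library also held the lowest Frzb, Lef1 and Tcf7 levels of all 18 libraries and the highest Wif1 level. Among the 3 EV libraries of its series it had the highest macrophage marker sum, 1035 CPM against 122 and 153 CPM, the highest fibroblast sum, 48308 against 39018 and 30128 CPM, and the lowest sum of 5 smooth muscle markers, 1133 against 1715 and 4557 CPM. Whether these have a part in its levels of Wnt genes was not tested. Its Wif1 count was 24, against 4 and 11 in the other EV libraries of that series. The Wif1 count was 1 to 6 in the RAS libraries of the S6K1/2 series, and in the S6K1 series it was 0 to 4 in all 9 libraries. A count of 0 in the first S6K1 WT RAS library allows up to 0.264 CPM. Wif1, an antagonist that binds Wnt ligands directly, was therefore at or close to the floor outside the S6K1/2 WT EV group, whose mean was 1.14 ± 0.884 CPM (SD, n = 3).

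Dkk2, a Dickkopf protein that binds the LRP co-receptors, was the most abundant antagonist per length under RAS. It was at 221, 205 and 157 CPM in S6K1 WT EV and at 822, 1062 and 418 CPM in WT RAS cells, without overlap. The increase was 3.96-fold (log2 fold change 1.98, SE 0.34, adjusted p = 0.00503, edgeR). S6K1/2 cells had 310, 532 and 206 CPM with EV and 503, 437 and 320 CPM with RAS, and the groups overlapped. The log2 fold change there was 0.26 (SE 0.30, 95% confidence interval -0.41 to 0.94, adjusted p = 0.541).

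Wnt5a, a ligand best known for signalling without beta-catenin, had moderate changes. It was at 193, 208 and 183 CPM in S6K1 WT EV and at 279, 334 and 255 CPM in WT RAS cells, a 1.49-fold increase (log2 fold change 0.57, SE 0.15, adjusted p = 0.0344, edgeR). S6K1/2 cells had 139, 180 and 189 CPM with EV and 169, 207 and 257 CPM with RAS. The level was higher with RAS in 3 of 3 lines, at 1.22-fold, 1.15-fold and 1.36-fold, but the log2 fold change of 0.31 (SE 0.22) had an adjusted p of 0.326. A gene on the opposite strand overlaps Wnt5a in the annotation as well.

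**Figure D2:**
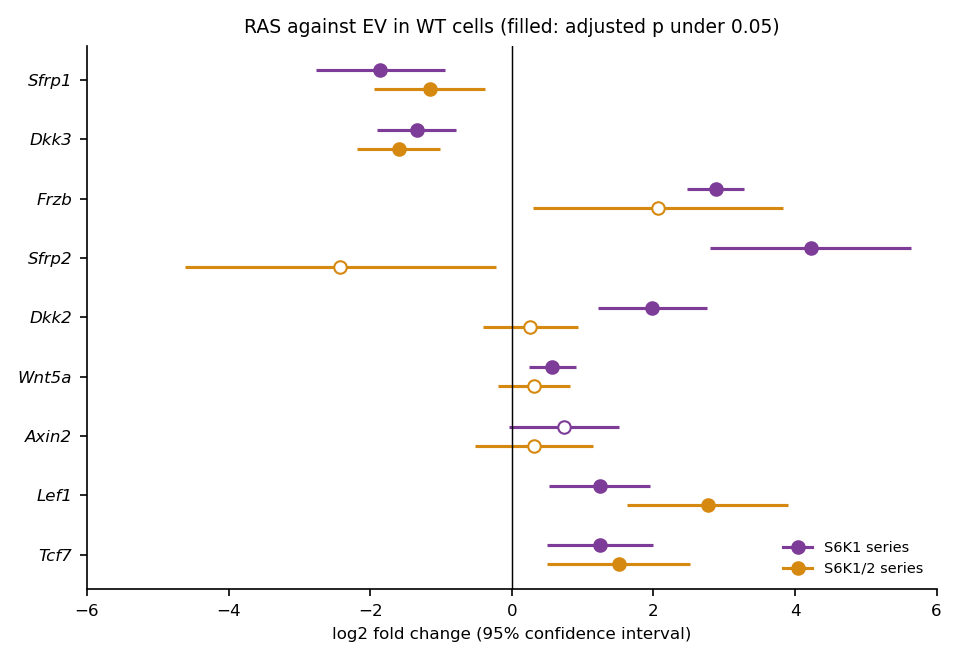
Log2 fold change of RAS against EV in WT cells for 9 genes, with 95% confidence intervals, in the S6K1 series (purple) and the S6K1/2 series (orange). Filled points passed an adjusted p of 0.05. Sfrp2 sits at 4.22 in one series and at -2.42 in the other.

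Of the 3 target genes, the 2 that encode TCF/LEF factors rose and the feedback inhibitor Axin2 did not pass the test. Lef1, at 11, 12 and 11 counts or 0.766, 0.894 and 1.01 CPM in S6K1 WT EV, was at 1.62, 1.87 and 2.81 CPM in WT RAS cells. The increase was 2.36-fold (log2 fold change 1.24, SE 0.31, adjusted p = 0.0307, edgeR). Lef1 in the S6K1/2 series had 1, 5 and 8 counts with EV and 24, 22 and 36 counts with RAS, or 0.0873, 0.442 and 0.699 CPM against 2.59, 2.62 and 3.34 CPM. The groups did not overlap in either series, but the counts are low, and in the S6K1 series the highest EV library (1.01 CPM) was close to the lowest RAS library (1.62 CPM). The increase in the S6K1/2 series was 6.81-fold (log2 fold change 2.77, SE 0.51, adjusted p = 0.00438), and without the third EV line the log2 fold change was 3.39 with an adjusted p of 0.00293.

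Tcf7, which encodes TCF1, was at 1.39, 2.24 and 3.48 CPM in S6K1 WT EV and at 4.78, 4.59 and 7.31 CPM in WT RAS cells, a 2.37-fold increase (log2 fold change 1.24, SE 0.33, adjusted p = 0.0392, edgeR). S6K1/2 cells had 1.05, 5.13 and 4.28 CPM with EV and 11, 10.7 and 8.06 CPM with RAS, a 2.84-fold increase (log2 fold change 1.51, SE 0.45, adjusted p = 0.0361). No EV library reached the level of a RAS library in either series. Gene models on both strands overlap Tcf7 in the annotation.

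Axin2, which promotes the degradation of beta-catenin and is induced by it, was at 1.46, 1.64 and 3.48 CPM in S6K1 WT EV and at 2.9, 4.28 and 3.69 CPM in WT RAS cells. The log2 fold change was 0.74 (SE 0.35, 95% confidence interval -0.04 to 1.52, adjusted p = 0.211, edgeR). The third EV line was the high one, and without it the value was 1.22 with an adjusted p of 0.0332. Axin2 in the S6K1/2 series was at 7.68, 7.43 and 3.06 CPM with EV and at 8.32, 9.53 and 4.82 CPM with RAS. It was higher with RAS in 3 of 3 lines, by 1.08-fold to 1.57-fold, and the log2 fold change was 0.31 (95% confidence interval -0.52 to 1.14, adjusted p = 0.557). Axin2 too is overlapped by a gene on the opposite strand.

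Calls near the threshold were lost when a library was left out, while their fold changes stayed close to those of the full set. Among S6K1 cells, the calls of Frzb, Sfrp2, Dkk2 and Dkk3 held with each of the 6 libraries left out, with highest adjusted p values of 0.000788, 0.0159, 0.0228 and 0.0329. Wnt5a lost its call without any 1 of the libraries except the third RAS library (adjusted p 0.0714 to 0.127), with log2 fold changes of 0.47 to 0.66 over all 6 fits. Lef1 lost it without any except the first RAS library (0.062 to 0.0942), with log2 fold changes of 0.97 to 1.39. Tcf7 lost it without any except the third EV library (0.0666 to 0.116), with log2 fold changes of 0.95 to 1.61. Sfrp1 lost it without the third EV, first RAS or second RAS library (0.0503, 0.0589 and 0.0673), with log2 fold changes of -2.13 to -1.62. With the replicate block and all libraries, the adjusted p values of Wnt5a, Lef1, Tcf7 and Sfrp1 in this series were 0.000635, 0.00932, 0.00265 and 3.79e-05. The block raised the calls over all genes as well, to 5085 of 14036 from 1859 without it. In the S6K1/2 series Tcf7 lost its call without any 1 of the RAS libraries (0.0616 to 0.0968), with log2 fold changes of 1.07 to 1.89, and its adjusted p with the block was 0.0282. Sfrp1 lost it there without the first or the third EV library (0.091 and 0.0584) or the second or the third RAS library (0.102 and 0.124), with log2 fold changes of -1.39 to -0.94. The calls of Lef1 and Dkk3 in that series held throughout. No direction of a called gene turned in these fits. Other choices ended calls as well. Fitting only the 6 libraries compared ended that of Tcf7 in both series (0.0892 and 0.0723) and that of Lef1 in the S6K1 series (0.0623). Fitting all 18 libraries ended those of Tcf7 (0.0614) and Wnt5a (0.0678) in the S6K1 series, and without a filter on low counts Lef1 there had an adjusted p of 0.0588.

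The RAS effects of the series were then compared with each other in a fit over all 18 libraries. None of the 10 genes passed by edgeR (smallest adjusted p 0.0984), and 0% of 14483 genes did. At an unadjusted p under 0.05 were 3 of the 10 genes, beside 12.6% of all genes. DESeq2 called 1 of the 10, and 142 of 30065 genes over all. The widest gap was that of Sfrp2, with a lower log2 fold change in the S6K1/2 series (difference -6.66, SE 1.34, adjusted p = 0.0984). With the replicate block this difference was -5.74 with an adjusted p of 0.0441, and DESeq2 gave an adjusted p of 0.000356. Without the third S6K1/2 WT EV library it was -7.19 with an adjusted p of 0.00772. With any 1 of the 12 WT libraries left out the difference lay between -7.19 and -4.22, the latter without the first S6K1/2 WT EV library. It passed in none of these fits except that without the third S6K1/2 WT EV library, and the highest adjusted p was 0.364. For Dkk2 the difference was -1.74 (95% confidence interval -2.77 to -0.70, adjusted p = 0.225), and leaving out 1 library gave -2.04 to -1.30 with adjusted p values from 0.0411, without the third S6K1/2 WT EV library, to 0.472. Without a filter on low counts its adjusted p was 0.00876. For Lef1 it was 1.52 (95% confidence interval 0.29 to 2.76, adjusted p = 0.323). The WT lines of each series belong to that series alone, so a difference between the series and one between the origins of their lines cannot be told apart.

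The next comparison asked whether loss of S6K1, or of S6K1 and S6K2, changed these genes under RAS. No member passed. In the S6K1 series 0 of 10 genes were called for KO against WT by edgeR, where 0.00712% of all genes (1 gene) passed. At an unadjusted p under 0.05 by edgeR were 0 of the 10, beside 6.86% of all genes, and DESeq2 called 0 of the 10. Over all genes DESeq2 called 96 and edgeR without a filter 108. With the replicate block 4.15% of all genes (583) passed and again 0 of the 10, with Dkk3 (adjusted p = 0.188) and Dkk2 (0.2) lowest. Within same-numbered pairs Frzb, Sfrp2, Dkk2 and Dkk3 were lower in KO than in WT in 3 of 3 pairs. Sfrp1, Wnt5a, Axin2, Lef1 and Tcf7 were lower in some pairs and higher in others. The share of all genes lower in 3 of 3 pairs was not computed, so a shared sign is not read as a result. The log2 ratios of Dkk3 were -0.55, -0.54 and -0.05, those of Dkk2 -0.62, -0.54 and -0.04, those of Frzb -0.41, -0.15 and -0.10 and those of Sfrp2 -0.24, -0.03 and -0.48. In the S6K1/2 series 0 of 10 were called for DKO against WT by edgeR, where 0.0216% of all genes (3 genes) passed. At an unadjusted p under 0.05 by edgeR were again 0 of the 10, beside 1.29% of all genes, and DESeq2 called 0. The loss effects of the series did not differ for any of the 10 in the fit over all libraries, with 0 at an unadjusted p under 0.05 by edgeR and 0 called by DESeq2, against 0.0069% of all genes (1 gene).

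The intervals show how much change these data leave possible. For Wnt5a the log2 fold change of KO against WT was -0.04 with a 95% confidence interval of -0.37 to 0.30, and for Frzb it was -0.20 with -0.57 to 0.16. Frzb was at 52.1, 74.9 and 70.6 CPM in KO RAS cells, beside 69.2, 82.9 and 75.4 CPM in WT RAS cells of the same series. Sfrp2 kept the spread among lines seen in WT cells, at 47.6, 74.6 and 17.4 CPM in KO RAS, and its interval was -1.34 to 1.01 around -0.17. Dkk2 was at 536, 731 and 407 CPM (log2 fold change -0.46, interval -1.20 to 0.28), and Dkk3 at 80, 95.9 and 133 CPM (-0.35, interval -0.90 to 0.19). For the remaining members of the S6K1 series, the interval was -0.83 to 0.96 for Sfrp1, -0.69 to 0.83 for Axin2, -0.40 to 0.91 for Lef1 and -0.56 to 0.87 for Tcf7.

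In DKO RAS cells Lef1 was at 4.36, 6.49 and 4.87 CPM, above all 3 WT RAS libraries at 2.59 to 3.34 CPM. Its log2 fold change of 0.87 (SE 0.42, interval -0.07 to 1.82) had an unadjusted p of 0.0666 and an adjusted p of 1 by edgeR. Tcf7, the other TCF/LEF factor, was at 8.52, 12.2 and 8.84 CPM in DKO RAS, within the range set by the WT RAS libraries and 1 library above it (log2 fold change -0.01, interval -0.98 to 0.96). Sfrp1 was at 85.4, 144 and 215 CPM in DKO RAS cells, overlapping the WT RAS libraries (0.46, interval -0.31 to 1.24). Sfrp2 was at 16, 7 and 11.9 CPM (-0.24, interval -2.45 to 1.97) and Frzb at 76.8, 114 and 88.4 CPM (-0.10, interval -1.77 to 1.58), and these were the widest intervals. The intervals were -0.65 to 0.69 for Dkk2, -0.63 to 0.52 for Dkk3, -0.34 to 0.67 for Wnt5a and -0.74 to 0.91 for Axin2.

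**Figure D3:**
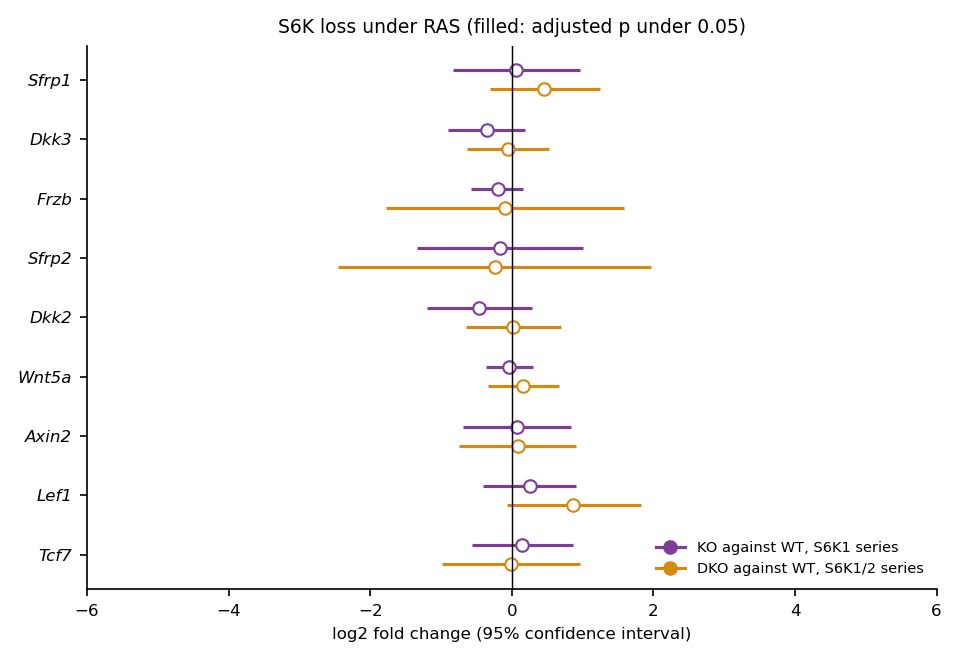
Log2 fold change of KO against WT (purple, S6K1 series) and DKO against WT (orange, S6K1/2 series) under RAS for 9 genes, with 95% confidence intervals. No point is filled, as none passed an adjusted p of 0.05, and Lef1 in the S6K1/2 series sits at 0.87 with a lower bound of -0.07.

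The knockout RAS cells were also set against WT EV cells, which share the EV libraries with the comparisons of RAS in WT cells. Genotype and RAS change together here, so their parts cannot be told apart. These values are therefore neither effects of RAS alone nor a second test of RAS. In the S6K1 series 8 of the 10 genes passed, where 18.1% of all genes did. Frzb was 6.38-fold and Sfrp2 16.6-fold higher in KO RAS than in WT EV (adjusted p = 0.000103 and 0.0026, edgeR), and Dkk2 2.88-fold higher (0.0138). Lef1 was 2.81-fold, Tcf7 2.64-fold and Wnt5a 1.45-fold higher (0.0112, 0.0201 and 0.0363). Dkk3 was 3.24-fold and Sfrp1 3.47-fold lower (0.00198 and 0.0156). Axin2 had a log2 fold change of 0.81 with an adjusted p of 0.144, which was 0.0342 with the replicate block. Over all genes 5766 of 14036 passed with the block, and 2542 without it. Without the second KO library Dkk2 (0.0566), Lef1 (0.0511), Sfrp1 (0.0682), Tcf7 (0.0552) and Wnt5a (0.13) lost their calls. Their log2 fold changes were then 1.28, 1.37, -1.59, 1.44 and 0.40, beside 1.52, 1.49, -1.79, 1.40 and 0.54 with all libraries. Tcf7 also lost its call without the third KO or the first or the second EV library (0.0509 to 0.0708), and Wnt5a without the third KO or any EV library (0.0535 to 0.112) and with all 18 libraries in the fit (0.0887). Axin2 gained one without the third EV library (0.0205). Without the third KO library the log2 fold change of Sfrp1 was -2.40, beside -1.79 with it.

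In the S6K1/2 series 3 of the 10 passed for DKO RAS against WT EV, where 25.7% of all genes did. Genotype, RAS and the origin of the embryos, which were not littermates, change together in this comparison. Lef1 was 12.5-fold higher (log2 fold change 3.64, SE 0.50, adjusted p = 0.00112, edgeR), Tcf7 2.82-fold higher (adjusted p = 0.0371) and Dkk3 3.16-fold lower (adjusted p = 0.00211). The fold of Lef1 rests on 1, 5 and 8 counts in the EV libraries. Lef1 was thus not tested in this series where 10 counts or more were required in all libraries. Frzb had a log2 fold change of 1.97 (adjusted p = 0.0937), Sfrp2 of -2.66 (0.0756) and Sfrp1 of -0.70 (0.164). Tcf7 lost its call without any 1 of the DKO libraries (0.0603 to 0.118) and with only the 6 libraries compared (0.0777). Without the third EV library Frzb (3.24, adjusted p = 0.0137) and Sfrp2 (-3.20, adjusted p = 0.0148) passed, and Lef1 was at 4.26. Over the fits with 1 library left out Frzb ranged from 1.42 to 3.24, with a highest adjusted p of 0.226. Sfrp2 ranged from -3.20 to -0.21, and the value of -0.21 (adjusted p = 0.796) was that without the first EV library.

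The rest of the pathway was read from lists of Wnt genes. The counts stand beside shares over all genes of 7.15% higher and 6.09% lower in the S6K1 series and 13.5% higher and 12.7% lower in the S6K1/2 series. The lists too were chosen with earlier results of these data known, so no excess over these shares is read from them. Of 15 secreted antagonists, members included, 6 were tested in the S6K1 series, with 3 higher and 2 lower, and 8 in the S6K1/2 series, with 0 higher and 3 lower. The median log2 fold change was 0.32 and -1.16. Besides Sfrp1 and Dkk3, the one that fell in the S6K1/2 series was Sfrp4 (log2 fold change -3.39, adjusted p = 0.0459, edgeR), which had -3.65 in the S6K1 series with an adjusted p of 0.0708. Sfrp4 is named after its values were seen.

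Of 19 Wnt ligands, 10 were tested in each series, with 2 higher and 3 lower in the S6K1 series and 3 higher and 4 lower in the S6K1/2 series (medians -0.13 and 0.03). Wnt7b, a ligand of the canonical branch in many tissues, had at most 3 counts in any EV library and 94 to 150 counts in S6K1 WT RAS and 53 to 122 in S6K1/2 WT RAS libraries. Over the summed counts of a group, 4 against 354 and 2 against 254, its level was 92.6-fold higher in the S6K1 series (exact 95% binomial interval 35.8 to 342) and 153-fold higher in the S6K1/2 series (41.8 to 1268), where the intervals cover counting error only. Wnt4 (-3.50 and -2.15), Wnt16 (-2.75 and -2.74) and Wnt2 (-1.95 and -2.69) fell in both series, all with adjusted p values between 0.00275 and 0.0418. The ligands thus divided, with Wnt7b moving from the floor to 4.91 to 13.2 CPM and Wnt16 going from 58.8 to 69.1 CPM down to 7.62 to 11.5 CPM in the S6K1/2 series.

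Among 16 receptors and co-receptors, 14 were tested, and none rose. In the S6K1 series 4 fell and in the S6K1/2 series 5 fell (medians -0.40 and -0.18). The receptors Ror1 (-2.61 and -2.67), Fzd4 (-1.84 and -2.25), Fzd8 (-1.17 and -1.86) and Fzd2 (-1.01 and -1.45) passed in both, with Ror1 being a receptor of Wnt5a. Of these, Ror1 was at 6.68 to 11.7 CPM in S6K1 WT EV and 0.701 to 2.65 CPM in WT RAS cells. The co-receptors Lrp5 and Lrp6, to which Dickkopf proteins bind, had log2 fold changes of -0.27 and -0.66 in the S6K1 series and -0.15 and -0.16 in the S6K1/2 series, and neither passed.

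The R-spondins are secreted proteins that strengthen Wnt signalling through the receptors Lgr4, Lgr5 and Lgr6. All 9 genes of this axis were tested, and 2 rose and 4 fell in each series (medians -0.11 and -0.80). Rspo2 (-4.19 and -4.35), Lgr5 (-4.14 and -2.73) and Rspo3 (-2.06 and -2.82) fell in both series. Rspo2 was at 135 to 353 CPM in S6K1/2 WT EV and at 7.88 to 18.3 CPM in WT RAS cells. Lgr6 rose (2.69 and 4.10), and so did Rspo4, with at most 1 count in any EV library. Its summed counts were 2 with EV and 451 with RAS in the S6K1 series, a ratio of 236 (exact 95% interval 64.9 to 1954), and 2 and 80 in the S6K1/2 series, a ratio of 48.1 (12.9 to 404). Within this axis both R-spondins and LGR receptors thus included a member that rose and members that fell.

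Of 5 membrane antagonists 4 were tested, and Apcdd1, an inhibitor at the cell surface, rose in both series (2.55 and 2.53, adjusted p = 0.00408 and 0.00666, edgeR). In all 1 rose in the S6K1 series and 2 in the S6K1/2 series, and 0 fell (medians 0.43 and 0.37). The ligand release genes Porcn (-0.79) and Wls (-0.55) fell in the S6K1 series, whereas their values in the S6K1/2 series, -0.70 and -0.28, did not pass. These are the acyltransferase and the carrier that Wnt ligands need for secretion.

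Inside the cell, 1 of 15 components fell in the S6K1 series and none rose, and 2 rose and 3 fell in the S6K1/2 series (medians -0.15 and -0.03), where 13.2% and 26.3% of all genes passed in either direction. Nkd1, a feedback inhibitor that binds Dishevelled, was the one that fell in both (-1.24 and -2.55). Ctnnb1, the gene of beta-catenin, had -0.11 and -0.25 and did not pass. Of 12 nuclear factors, 2 rose and 2 fell in the S6K1 series and 2 rose and 5 fell in the S6K1/2 series (medians -0.05 and -0.09). Those that rose were Lef1 and Tcf7. Tcf7l1, which encodes TCF3 and mostly acts as a repressor, fell (-0.96 and -1.15), as did the beta-catenin cofactor gene Bcl9l (-1.18 and -0.96).

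Of 18 beta-catenin target genes, 14 were tested in the S6K1 series, with 5 higher and 4 lower, and 15 in the S6K1/2 series, with 7 higher and 3 lower (medians 0.52 and 0.45, beside 0.00 and -0.02 over all genes). Lef1, Apcdd1 and the adhesion receptor gene Cd44 (1.09 and 2.32) rose in both, whereas Lgr5 and Nkd1 fell in both. The list did not move in 1 direction. Several genes stand in more than 1 list. Of the 100 genes of all these lists together, 77 were tested by edgeR for KO against WT under RAS, and 0 passed. At an unadjusted p under 0.05 were 5 of the 77, beside 6.86% of all genes. DESeq2 called 1, Ccn5, and 96 of 27614 genes over all. For DKO against WT 79 were tested by edgeR and 0 passed, with 2 at an unadjusted p under 0.05, beside 1.29% of all genes. DESeq2 called 0, and 10 of 27277 genes over all.

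**Figure D4:**
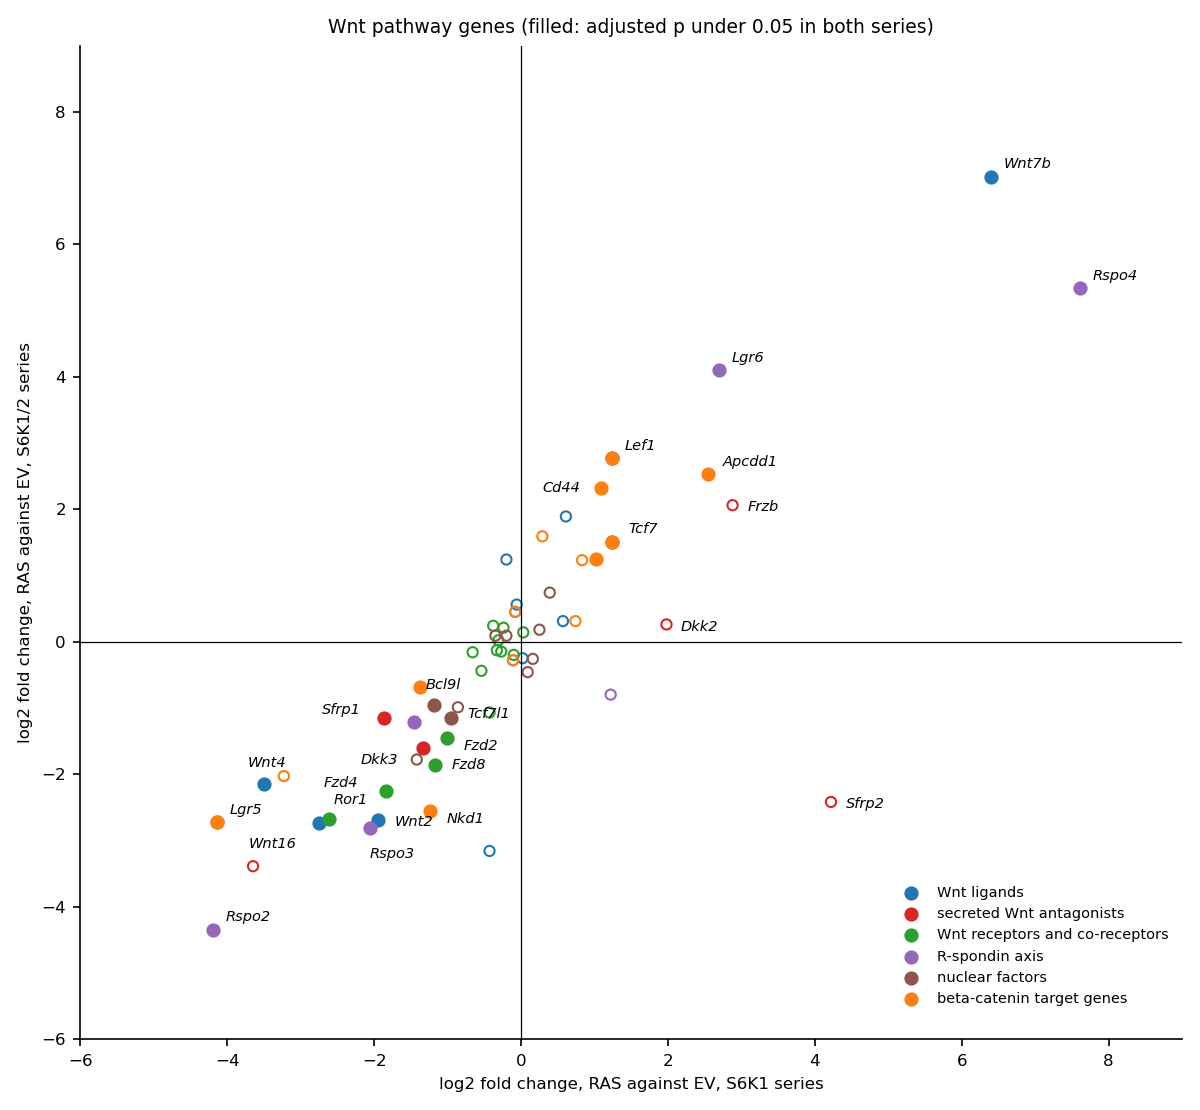
Log2 fold change of RAS against EV in the S6K1 series (horizontal axis) and the S6K1/2 series (vertical axis) for the tested genes of 6 Wnt pathway lists, with 1 point per gene and list in the colour of the list. Filled points passed in both series, Sfrp2 lies at 4.22 and -2.42, and the fitted values of Wnt7b and Rspo4, with EV counts of at most 3, depend on the prior count.

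For each of the 9 tested members, the genes with the most similar course were sought over the 18 libraries, with each series centred on its own mean. The measure was Pearson's r of log2 CPM, which is a description, since all libraries share the contrast of RAS and EV. Lef1 and Tcf7 were close to each other (r = 0.895), and Frzb was close to both (0.883 with Lef1 and 0.888 with Tcf7). Sfrp1 and Dkk3, the members that fell, had r = 0.854. Sfrp2 was near 0 with Frzb (0.042) and with Tcf7 (0.0023), and its highest value among the members was with Dkk2 (0.71). Axin2 had values from -0.428 with Dkk3 to 0.621 with Dkk2.

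Beyond the members, the genes most like Dkk3 were Htra3 (0.977), Rspo2 (0.973) and Abi3bp (0.97), and those most like Sfrp1 were Podn (0.931), Svep1 (0.93) and Adamtsl3 (0.926). Lef1 was most like Spp1 (0.967), Slc30a9 (0.96) and Tnfaip2 (0.959), and Tcf7 was most like Rgs17 (0.967), Ano1 (0.963) and Tnni1 (0.962). For Frzb they were A830007P12Rik (0.964), Prkar1b (0.964) and Btn2a2 (0.962), and for Dkk2 they were Spink2 (0.948), Aldh9a1 (0.947) and Csnk1g3 (0.928). The closest genes were less close for Sfrp2 (Zfp428 0.913, Socs2 0.882 and Ccny 0.875), for Wnt5a (Tyw1 0.88, Mtf1 0.867 and St3gal2 0.86) and for Axin2 (D930048N14Rik 0.859, Obfc1 0.837 and Dnm1 0.828).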

How the data were processed

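The authors deposited raw counts per gene for 18 libraries (3 per group). The study mapped reads of stranded, single-end libraries to mm9 with TopHat and used HTSeq for counting, whereas the submitters' processing notes name mm10 and STAR 2.7.1a, so the build and aligner behind the counts are not settled. Lengths and overlaps came from the GENCODE annotation of NCBIM37 and promoters from RefSeq. The genes, lists and tests were chosen with earlier results of these data known.

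The analysis used edgeR 4.0.16 in R 4.3.3: filterByExpr (minimum count 10), TMM, group as the only term over the 9 libraries of a series, or over all 18 libraries for differences between series, two-sided quasi-likelihood tests and Benjamini-Hochberg adjustment (threshold 0.05). DESeq2 1.42.0 was an alternative. All 10 members are named. Of each other list, at most 5 genes called in both series with 1 sign are named, those with the largest mean absolute log2 fold change, and a few further genes were named after their values were seen. Levels carry mean ± SD, and floors cover counting error only. The replicate numbers pair the EV and RAS libraries of each series and the KO libraries of the S6K1 series: the correlations of deviations from the group means were 0.286 to 0.66 for same-numbered libraries. No pair of replicates was a repeat of 1 library (chi-square per degree of freedom of at least 8.62 over 18 pairs). The main tests do not use the pairing by number, so same-numbered EV and RAS libraries count as separate cultures. Their p-values measure the spread between cultures of a group, differences between lines included. The scripts were tested on simulated counts.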

Additional observations from a re-analysis of the deposited data

Results flagged for a closer look

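Sfrp2 was singled out because its RAS effect differed between the series when same-numbered libraries were paired: the difference of the log2 fold changes, S6K1/2 series minus S6K1 series, was -5.74 with an adjusted p of 0.0441 (edgeR with the replicate block). Without the block it was -6.66 with an adjusted p of 0.0984. Over all genes 58 of 14483 passed with the block and 0 without it. The block also took in the DKO libraries, whose numbers pair less well with those of WT libraries. Sfrp2 was higher with RAS in 3 of 3 lines of the S6K1 series, at log2 ratios of 4.57, 5.24 and 2.56. In the S6K1/2 series the log2 ratios were -3.27, -1.30 and 0.91, so 1 of the 3 lines moved the other way. Without the first EV library of that series, RAS against EV there was 0.03 (adjusted p = 0.972, edgeR). The difference without the block was then -4.22. The fit with the block was not repeated without that library. With RAS the levels of the lines lay between 8.1 and 76.2 CPM, whereas with EV they lay between 2.01 and 194 CPM.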

How the results depend on the processing

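Each comparison was repeated with DESeq2, with DESeq2 size factors, with upper-quartile scaling, without a filter on low counts, with a stricter filter (10 counts or more in all libraries), with the replicate block, with only the libraries compared, with all 18 libraries, and without each library in turn. Of 1075 repeated fold changes of the members, 960 kept direction and side of the threshold, 49 lost the call, 23 gained one and 43 turned sign. None of the 23 called fold changes turned sign, and both other scalings gave the same number of called members in every comparison. For RAS against EV in the S6K1 series 8 members were called, and 6 with only the libraries compared or with all 18. Over all genes the calls were 1859 of 14036, 1486 of 13687 with only the libraries compared and 2057 of 14483 with all 18. The number of members called for DKO RAS against WT EV was 3, and it was 6 without a filter and 5 with all 18 libraries. The calls over all genes were 3565 of 13881, 3970 of 27277 and 4319 of 14483 in the same order. For the difference of the RAS effects the number of members called was 0, and it was 1 with DESeq2, 2 without a filter and 1 with the replicate block. Those settings called 0 of 14483, 142 of 30065, 204 of 30065 and 58 of 14483 genes over all. The cause of these changes was not tested. Leaving out 1 library gave 4 to 6 members for RAS against EV in the S6K1 series, 2 to 5 in the S6K1/2 series, 3 to 8 for KO RAS against WT EV, 2 to 5 for DKO RAS against WT EV and 0 to 2 for the difference of the RAS effects. Calls over all genes shifted too, to 1043 to 1818, 2050 to 4199, 1325 to 2139, 1999 to 4044 and 0 to 290 in the same order. The numbers of DKO libraries pair with those of WT libraries less well (same-number correlations from -0.0822 to 0.414). With the block 4 members were called for DKO RAS against WT EV, beside 3931 of 13881 genes. Every block fit of the S6K1/2 series or of all 18 libraries joined DKO libraries to same-numbered WT libraries, also for RAS against EV. A block over the WT libraries alone was not fitted.

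Sign changes were confined to fold changes that were not called. With the replicate block, KO against WT was -0.01 for Sfrp1, DKO against WT was 0.17 for Frzb, and the difference of the loss effects was 0.04 for Sfrp2. Without a filter, DKO against WT was 0.01 for Tcf7. With 1 library left out, the log2 fold change of RAS against EV ranged from -2.95 to 0.03 for Sfrp2 in the S6K1/2 series. KO against WT ranged from -0.55 to 0.34 for Sfrp1, -0.69 to 0.23 for Sfrp2, -0.18 to 0.07 for Wnt5a and -0.07 to 0.20 for Axin2. DKO against WT ranged from -0.41 to 0.40 for Frzb, -0.53 to 0.13 for Sfrp2, -0.14 to 0.17 for Dkk2, -0.33 to 0.21 for Dkk3, -0.08 to 0.33 for Wnt5a, -0.15 to 0.29 for Axin2 and -0.20 to 0.08 for Tcf7. The difference of the RAS effects ranged from -1.37 to 0.45 for Frzb and -0.19 to 0.63 for Tcf7. The difference of the loss effects ranged from -0.18 to 0.63 for Frzb, -0.43 to 0.48 for Sfrp2, -0.03 to 0.40 for Wnt5a and -0.19 to 0.25 for Axin2. Low counts limit Wif1, Lef1, Axin2 and Tcf7.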
